A study of Homo sapiens with 2 samples.

Results

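Lysosomal genes were described in A549 cells, a human lung adenocarcinoma line, that carried a red fluorescent reporter of vimentin. The set held PSAP, GRN, NPC2, CTSB, CTSD, LAMP1, LAMP2 and CD63, which is 8 of the 57736 genes in the deposited table, chosen by symbol among its gene entries. One library came from cells in which transforming growth factor beta (TGF-beta) had been used to induce epithelial to mesenchymal transition (EMT), and the other from cells given no treatment, so each group was 1 library. Both libraries are labelled wild type, and the labels give neither the dose and duration of TGF-beta nor whether the reporter line is a single clone. Expression was read with the AmpliSeq Transcriptome kit, in which a short stretch of each targeted transcript is amplified by multiplex PCR and counted. Since each condition rests on a single library, the treatment could not be tested and no difference has a replicate check. Intervals are exact 95% intervals that cover counting error only, because each group is 1 library. They treat reads as independent. PCR copies of a molecule carry no identifier and cannot be counted as 1, so the intervals may be too narrow even for counting error.

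Lysosomes are acidic organelles in which hydrolases break down proteins, lipids and glycans that arrive by endocytosis and autophagy. Most soluble lysosomal proteins are glycoproteins that pass through the endoplasmic reticulum and Golgi and are carried onward by sorting receptors, while a heavily glycosylated set of membrane proteins lines the organelle. Many of their genes carry E-box-like CLEAR elements near the transcription start and are known targets of the transcription factor TFEB and its relatives. In tumour cells lysosomal cathepsins can also be secreted and act on extracellular matrix.

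All 8 genes had fewer counts in the TGF-beta-labelled library than in the untreated library, although CTSD, LAMP1, LAMP2 and CD63 turned to the other direction when the libraries were scaled on ribosomal protein genes. Their summed count was 26 in the TGF-beta-labelled library and 538 in the untreated library, or 46.0 and 754 CPM, the count scaled to library size, after scaling by the trimmed mean of M-values (TMM). The sum was 16.4-fold lower in the TGF-beta-labelled library, with a counting interval of 11.1-fold to 25.3-fold. Together the genes made up 0.00435% of the TGF-beta-labelled library (0.00284% to 0.00638%) and 0.0797% of the untreated library (0.0731% to 0.0868%). The gap was widest for the soluble proteins PSAP, NPC2, CTSB and GRN and the membrane protein CD63, each lower by 8-fold or more. CTSD and LAMP1 were the members whose direction was least firm, CTSD because its reads overlap another gene and LAMP1 because it had few reads. Levels are not compared between genes, because each gene is read through its own amplified stretch and the yields of the stretches were not measured.

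The libraries also differed outside the lysosomal genes. They held 597133 counts (TGF-beta) and 674784 counts (untreated) after rounding, with 43.6% and 32.6% of them in the 10 genes with the most counts. Ribosomal protein genes made up 0.243% of the TGF-beta-labelled library and 3.12% of the untreated library. The library labelled TGF-beta was also lower for genes that the treatment is known to induce, with 15 counts against 407 for TGFBI and 56 against 452 for VIM. Of the 9 TGF-beta and EMT genes read as a check, 6 were lower by 2-fold or more and 1 was higher. Over all genes tested, 26.7% were lower and 22.0% higher by as much. The higher check gene was CDH1, with 4 counts in the TGF-beta-labelled library and 1 in the untreated library (log2 ratio 2.34). Its interval crossed equality. CDH1 is an epithelial marker, counted in that list below too, so its higher level is no sign of EMT. The direction of the check genes goes against the label, so the library is called by its label throughout. Every direction given here would turn if the labels had been exchanged, which was not tested. The collagen gene COL1A1 ran the other way, with 356 counts in the TGF-beta-labelled library and 196 in the untreated library (log2 ratio 1.20, 0.94 to 1.46). The 2 exon regions with the most untreated COL1A1 counts held 54.6% of its TGF-beta counts and 94.4% of its untreated counts. The untreated counts chose those regions. The part of the COL1A1 reads outside them in this ratio was not tested. Some epithelial markers were read in both, with 45 and 51 counts of the keratin gene KRT19 in the TGF-beta and untreated libraries. KRT7, with the most counts of the list, had 32 and 179 (log2 ratio -2.15, -2.74 to -1.60), KRT8 had 16 and 53, and KRT18 had 0 and 3. All 10 epithelial markers summed to 128 counts in the TGF-beta-labelled library and 324 in the untreated library, and 2 of the 9 tested were lower and 2 higher by 2-fold or more. Macrophages are rich in lysosomes, so 15 of their markers were read too. They summed to 152 counts in the TGF-beta-labelled library and 211 in the untreated library, but the integrin gene ITGAX alone held 133 and 172 of these. Of the 6 tested, 2 were lower and 1 higher by 2-fold or more. LYZ, MRC1, AIF1 and C1QA were at 0 in both. CD14 had 0 and 10 counts, CSF1R had 2 and 12 and PTPRC had 2 and 5 in the TGF-beta and untreated libraries. CD163 ran the other way with 5 and 2, and ITGAM had 4 and 4. The part of these genes in the lysosomal difference was not tested. Fibroblast markers summed to 419 and 271 counts, most of them COL1A1, in the TGF-beta and untreated libraries, and 0 of the 6 tested were lower and 2 higher. In bulk RNA, fewer cells of a type and less RNA per cell cannot be told apart.

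PSAP, the precursor of the saposins that help hydrolases reach sphingolipids, showed the widest gap of the set. It had 1 count (1.77 CPM) in the TGF-beta-labelled library and 210 counts (294 CPM) in the untreated library. The log2 ratio of the TGF-beta-labelled library over the untreated library was -7.38, and the interval of -12.69 to -4.88 is wide because 1 read sets it. PSAP lies on hg19 chromosome 10 (73576055 to 73611126, minus strand). Of the 28 pairs of members, 2 had ratios whose intervals did not overlap, PSAP with CTSD and NPC2 with CTSD. PSAP supplied 210 of the 538 untreated counts, and without it the summed log2 ratio was -3.38 (-4.03 to -2.79).

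NPC2 and GRN were the next most deeply read members in the untreated library. NPC2, a small soluble protein that binds cholesterol and passes it to the membrane protein NPC1, had 3 counts (5.31 CPM) in the TGF-beta-labelled library and 84 counts (118 CPM) in the untreated library. Its log2 ratio was -4.47 (-6.78 to -2.88). GRN, which encodes progranulin, a secreted glycoprotein that is cut into granulins in the lysosome, had 5 counts (8.85 CPM) and 88 counts (123 CPM) in the TGF-beta and untreated libraries. Its log2 ratio was -3.80 (-5.46 to -2.52). For both genes the CPM intervals of the libraries did not overlap, and how often this held over all genes was not counted. GRN lies on hg19 chromosome 17 (42422614 to 42430470, plus strand) and NPC2 on chromosome 14 (74942895 to 74960880, minus strand).

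CTSB, a cysteine protease that tumour cells can release, had 2 counts (3.54 CPM) in the TGF-beta-labelled library and 47 counts (65.9 CPM) in the untreated library, a log2 ratio of -4.22 (-7.31 to -2.29). CTSD, an aspartic protease, had 7 counts (12.4 CPM) and 22 counts (30.9 CPM) in the TGF-beta and untreated libraries, a log2 ratio of -1.32 (-2.79 to -0.04). The CTSB and CTSD intervals overlap, which does not show that the cathepsins were alike, and their difference was not tested. Counted with an overlapping gene, as described below, CTSD had an interval of -1.20 to 0.07, which does not meet that of CTSB. CTSD (hg19 chromosome 11, 1773982 to 1785222, minus strand) kept the most counts of the set in the TGF-beta-labelled library.

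The CTSD value depends on how reads were divided between overlapping genes. The gene RP11-295K3.1 lies on the same strand (1768897 to 1780281) and shares exons with CTSD. It had 27 counts in the TGF-beta-labelled library and 41 in the untreated library. Of the 22 untreated CTSD counts, 0 were entered under a CTSD exon, and 31 of the 3157 genes with 20 or more untreated counts (0.982%) likewise had under 1% of them in exon entries. The exon entries of RP11-295K3.1 held 62.5 untreated counts, the total of both genes, and all of them lay in exons that overlap those of CTSD. Taken as 1 gene they had 34 TGF-beta and 63 untreated counts and a log2 ratio of -0.55 (-1.20 to 0.07), so CTSD was then less than 2-fold lower and its interval reached past equality. Counts lying in CTSD exons under either gene were 30.5 in the TGF-beta-labelled library and 62.5 in the untreated library, a log2 ratio of -0.69 (-1.36 to -0.05) after rounding to 31 and 63.

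CD63, a tetraspanin of late endosomes, multivesicular bodies and exosomes, had 4 counts (7.08 CPM) in the TGF-beta-labelled library and 55 counts (77.1 CPM) in the untreated library, a log2 ratio of -3.45 (-5.37 to -2.01). LAMP2, a lysosome-associated membrane glycoprotein that also serves chaperone-mediated autophagy, had 3 counts (5.31 CPM) and 25 counts (35.1 CPM) in the TGF-beta and untreated libraries, a log2 ratio of -2.72 (-5.09 to -1.01). LAMP1, its close relative and a standard marker of lysosomes, had 1 count (1.77 CPM) against 7 counts (9.82 CPM). Its log2 ratio of -2.47 has an interval of -7.97 to 0.49, so a difference in LAMP1 was not detectable at this depth. Summed, the membrane genes had 8 counts against 87 and a log2 ratio of -3.11 (-4.36 to -2.07). The soluble genes had 18 against 451 and a log2 ratio of -4.31 (-5.08 to -3.63), and these intervals overlap. CD63 lies on hg19 chromosome 12 (56119107 to 56123491, minus strand), LAMP2 on chromosome X (119561682 to 119603220, minus strand) and LAMP1 on chromosome 13 (113951556 to 113977987, plus strand). CTSB lies on chromosome 8 (11700033 to 11726957, minus strand).

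**Figure D1:**
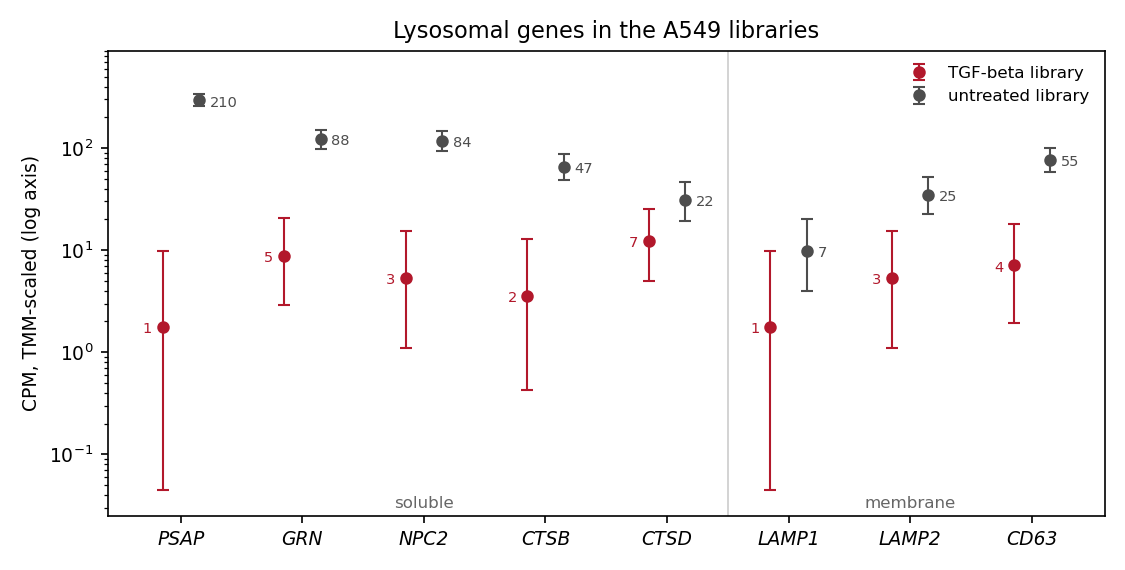
Level of each lysosomal gene (horizontal axis) in CPM on a log axis, in the TGF-beta-labelled library (red, left of each pair) and the untreated library (grey, right), with exact 95% Poisson intervals and the count printed beside each point. Every red point lies below its grey partner (CTSD, LAMP1, LAMP2 and CD63 turn when scaled on ribosomal protein genes). The intervals overlap for CTSD and LAMP1 only, and how often intervals overlap over all genes was not counted.

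Against the whole table, all 8 genes were lower by 2-fold or more in the TGF-beta-labelled library, as were 26.7% of the 15401 genes that reached 5 CPM in either library. A gap of 8-fold or more was found in 5 of the 8, against 5.30% of all genes, and one of 16-fold or more in 3 of the 8, against 1.53%. The median log2 ratio of the set was -3.62, and over all genes tested it was 0.01. A level higher by 2-fold or more was found in 0 of the 8 and in 22.0% of all genes. All 8 passed the filter, but 3 of them (PSAP, CTSB and LAMP1) passed through the untreated library alone and so had to be lower in the TGF-beta-labelled library. Deeply read genes give a higher background. Of the 5341 genes that reached 20 CPM in either library, 36.0% were lower by 2-fold or more. Among the 1755 genes outside the lists whose untreated level lay within 2-fold of the set's median untreated level, 46.3% were, although choosing genes by their untreated level itself favours lower ratios. Of those 1755 genes, 119 had a lower ratio than the summed count of the set. The members were picked with earlier results of these data known, so these counts are no test of the set.

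**Figure D2:**
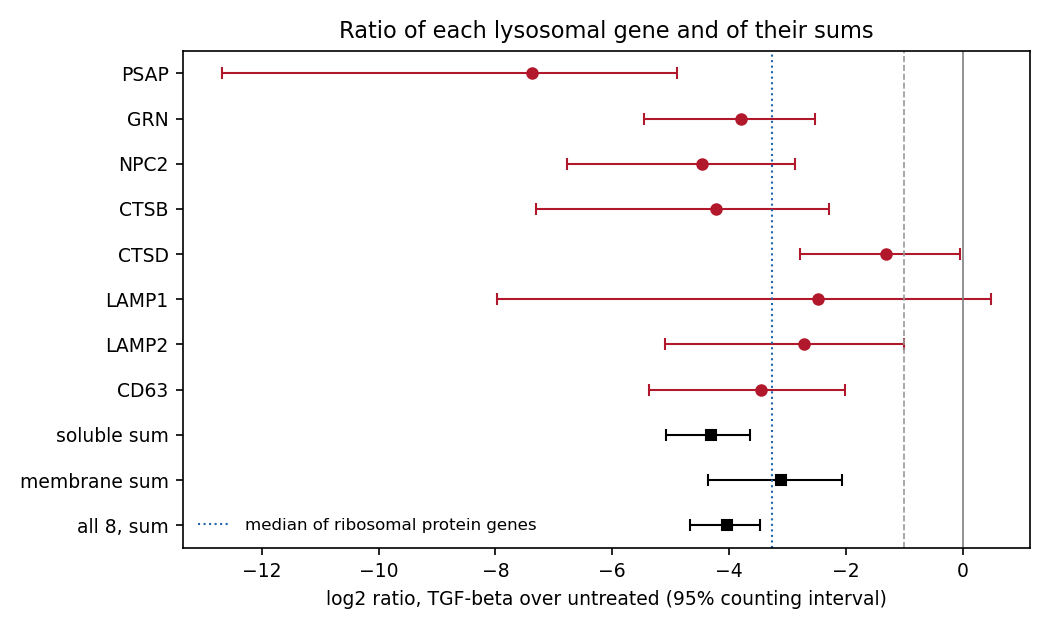
Log2 ratio of the TGF-beta-labelled library over the untreated library for each gene (red circles) and for summed counts (black squares), with exact 95% counting intervals. The solid line marks equality, the dashed line a ratio 2-fold lower and the dotted line the median of the ribosomal protein genes (-3.26). The LAMP1 interval alone crosses equality, and how many intervals of all genes do so was not counted. Scaling on ribosomal protein genes puts CTSD, LAMP1, LAMP2 and CD63 above equality.

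The exon entries show where the reads of these genes lay. In the untreated library nearly all counts of PSAP, CTSB, GRN, NPC2 and CD63 sat in 1 exon region or a neighbouring pair. For PSAP these were 133.8 counts at 73579222 to 73579379 and 74.6 at 73578788 to 73579028. For CTSB they were 37.5 counts at 11704561 to 11704677 and 8.31 at 11705188 to 11705331, and the CTSB counts of the TGF-beta-labelled library lay in neither. Its 2 counts lay at 11724763 to 11725202, near the 5′ end of the gene. NPC2 had 83.9 of its 84.0 untreated counts at 74945926 to 74947482 and none of its TGF-beta counts there. By contrast, the TGF-beta counts of PSAP (1 of 1), LAMP1 (1 of 1), CD63 (3 of 4) and GRN (3 of 5) lay in the 2 regions that held most of their untreated counts.

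The NPC2 counts of the TGF-beta-labelled library cannot be assigned to NPC2 alone. All of the expected count of 2.5 lay at 74960734 to 74960880, an exon that overlaps the gene ISCA2 on the opposite strand. ISCA2 held the same expected count of 2.5 at 74960753 to 74960855 in the TGF-beta-labelled library and 0 counts in the untreated library. Whether counting used strand is not given in the sources at hand, and without strand the reads of these genes cannot be told apart. With these reads left out NPC2 would be at 0 in the TGF-beta-labelled library, and the floor of 3 counts used for a 0 gives the log2 ratio already stated, then as a bound. LAMP2 had 20.2 of its 25 untreated counts at 119589212 to 119589425 and all 3 TGF-beta counts at 119570349 to 119573148, in the 3′ part of the gene, where 4 untreated counts also lay.

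Summed over the set, 11 of 25.5 expected counts (43.1%) of the TGF-beta-labelled library lay in the 2 exon regions with the most untreated counts of each gene, and 508 of 539 (94.3%) of the untreated library did. Without CTSD, whose untreated reads were entered under the exons of the overlapping gene, the shares were 59.5% and 98.4%. The untreated share is high by construction, because its counts chose the regions. The same choice lowers the ratio inside the regions and raises the ratio outside them, so the ratios that follow are descriptions only. Within those regions the log2 ratio of the set was -5.19 (-6.21 to -4.34), and outside them it was -0.66 (-1.66 to 0.28), where 15 counts stood against 30 after rounding. CTSD, which has no such region, supplied 7 and 22 of these, and without it 8 counts stood against 8 (log2 ratio 0.34, -1.28 to 1.95). Before rounding these were 7.5 TGF-beta counts, of which 2.5 were the NPC2 reads that overlap ISCA2. Over the 2677 genes with at least 20 untreated counts and 3 or more exon regions, the pooled share inside the regions was 92.8% in the TGF-beta-labelled library and 98.5% in the untreated library. Over the 437 such genes that were lower by 8-fold or more and had a TGF-beta count, the pooled share was 81.3% and 98.0%. The medians over genes were 67.5% and 97.1% for the lysosomal set, 66.7% and 99.4% for those 437 genes and 91.4% and 97.4% for all 2677, in the TGF-beta-labelled and untreated libraries. The part of these scattered reads in the size of the ratios was not tested.

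**Figure D3:**
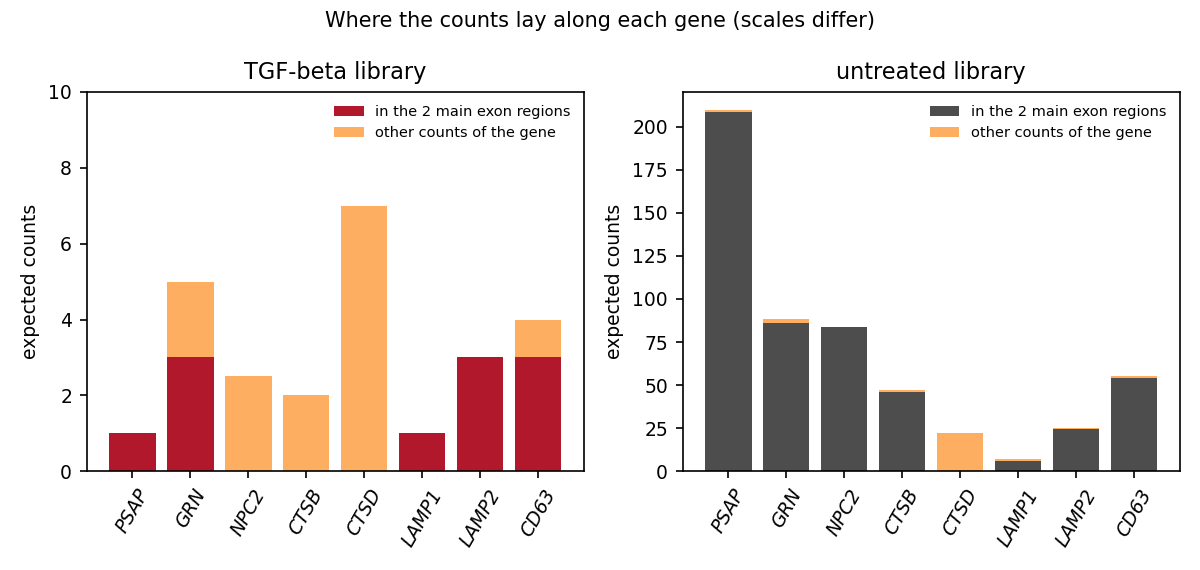
Expected counts of each lysosomal gene in the TGF-beta-labelled library (left) and the untreated library (right) on different vertical scales, split into counts in the 2 exon regions with the most untreated counts (dark) and other counts (orange). The TGF-beta counts of NPC2 and CTSB lie wholly outside those regions. All CTSD counts are orange because the gene has no such region, its untreated reads being entered under the exons of an overlapping gene. Of its 7 TGF-beta counts, 1.78 were entered under its own exons.

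Promoter sequences were read because all 8 members lay in one direction and many lysosomal genes are known TFEB targets. RefSeq windows on GRCh38.p14, from 250 bases before to 50 bases after an annotated start, were found for 5 of the 8 genes (CTSD, LAMP1, GRN, NPC2 and CD63). Each was searched on both strands for the E-box CACGTG and for the CLEAR-type extensions TCACGTG and TCACGTGA, the longer of which contain the shorter. The windows that hold CACGTG are shown with that motif in capitals, for LAMP1 at chr13:113296989-113297288 on the plus strand, CTSD at chr11:1763878-1764177 on the minus strand and CD63 at chr12:55728960-55729259 on the minus strand.
LAMP1: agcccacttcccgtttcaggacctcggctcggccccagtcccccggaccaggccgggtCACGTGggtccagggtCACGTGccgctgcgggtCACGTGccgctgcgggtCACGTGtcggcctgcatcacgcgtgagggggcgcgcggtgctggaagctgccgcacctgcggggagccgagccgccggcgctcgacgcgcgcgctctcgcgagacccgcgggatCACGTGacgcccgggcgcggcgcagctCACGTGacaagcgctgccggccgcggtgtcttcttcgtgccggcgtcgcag
CTSD: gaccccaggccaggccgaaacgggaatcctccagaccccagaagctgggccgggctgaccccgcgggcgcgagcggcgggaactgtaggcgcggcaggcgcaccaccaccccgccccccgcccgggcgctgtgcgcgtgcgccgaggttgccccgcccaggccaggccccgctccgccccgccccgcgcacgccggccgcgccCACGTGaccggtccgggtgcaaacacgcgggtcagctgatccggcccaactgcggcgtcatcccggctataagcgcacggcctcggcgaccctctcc
CD63: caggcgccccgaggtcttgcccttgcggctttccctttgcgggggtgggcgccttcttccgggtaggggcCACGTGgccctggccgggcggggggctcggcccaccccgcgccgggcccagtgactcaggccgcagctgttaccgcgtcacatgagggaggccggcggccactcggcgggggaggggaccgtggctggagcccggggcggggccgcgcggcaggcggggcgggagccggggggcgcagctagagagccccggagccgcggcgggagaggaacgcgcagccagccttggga

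LAMP1 held CACGTG at 6 places, and the 2 nearest the start were TCACGTGA. CTSD held TCACGTG once and CD63 held CACGTG in 1 of its windows, while GRN and NPC2 held none in these windows. By gene, CACGTG was found in 3 of 5 members with a window and in 26% of 73 other hydrolase, cofactor and membrane protein genes. It was found in 6.56% of 61 ribosomal protein genes and in 8.77% of all 27305 genes with a window. A gene with several windows, such as CD63, has more places for a match. By window, CACGTG was in 3 of 13 for the members (23.1%) and in 20% of 100 for the other lysosomal genes. For ribosomal protein genes it was in 5.26% of 76 windows, and over all genes in 7.26% of 35116. TCACGTG was found in 2 of 5 members and in 4.49% of all genes. TCACGTGA was found in 1 of 5 members, in 13.7% of the other lysosomal genes, in 0% of the ribosomal protein genes and in 1.18% of all genes. TCACGTGA with G before and C after it was found in 0 of 5 members, in 5.48% of the other lysosomal genes and in 0.421% of all genes. The genes with the motif had log2 ratios of -2.47 (LAMP1), -1.32 (CTSD) and -3.45 (CD63), and those without it had -3.80 (GRN) and -4.47 (NPC2). A motif match is a description of the sequence and says nothing of binding in these cells.

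The rest of the lysosomal machinery was less uniform than the 8 genes, which were picked with earlier results known. Over 9 further lists, with each gene counted once, 72 of 201 genes tested were lower by 2-fold or more. Higher by as much were 29 (80 lower and 17 higher with DESeq2 size factors), and the median log2 ratio was -0.40. Of the 74 with at least 20 counts over both libraries, 33 were lower and 6 higher, beside 1678 and 767 of 5199 over all genes. The floor of 3 counts for a 0 also limits how low a gene with few reads can score. ATP6V1C1, with 0 counts against 7, had a log2 ratio of -0.89, while LAMP1, with 1 against 7, had -2.47. Over all genes tested 26.7% were lower and 22.0% higher, so the glycosidase and autophagy lists, with 9 of 35 and 5 of 29 lower, lay at or under that background. Other cathepsins and proteases lay closest to the set, with 6 of 9 lower, 0 higher and a median of -2.47. CTSL, a cysteine protease, had 3 counts in the TGF-beta-labelled library and 42 in the untreated library (log2 ratio -3.47, -5.81 to -1.83), and CTSZ, a carboxypeptidase, had 4 against 35 (-2.79, -4.75 to -1.31). TPP1, a tripeptidyl peptidase, had 0 against 24 and was at least 6.34-fold lower, taking 3 counts per library as the floor for a 0, with a counting interval that reaches -2.25 on the log2 scale. Glycosidases, sulfatases, lipases and cofactors had 9 of 35 lower and 8 higher, with a median of 0.34, the value that scaling gives to equal counts. Among them IDS, a sulfatase of glycosaminoglycan breakdown, had 2 counts against 26 (-3.36, -6.48 to -1.37), and the galactosidase GLB1 had 2 against 21 (-3.06, -6.19 to -1.02). The sialidase NEU1, which forms a complex with CTSA, had 7 counts against 31 (-1.81, -3.24 to -0.60).

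Other lysosomal membrane proteins were split, with 9 of 28 lower and 7 higher and a median of -0.19. LAPTM4B had 1 count against 37 (-4.87, -10.22 to -2.31) and its relative LAPTM4A had 10 against 57 (-2.18, -3.31 to -1.19). SLC38A9, an amino acid sensor that signals to mTORC1, ran the other way with 51 counts in the TGF-beta-labelled library and 4 in the untreated library (4.01, 2.56 to 5.94). Of its 51 counts, 50 lay in a single exon region of 1221 bases. The proton pump that acidifies the lysosome had 11 of 19 subunits lower and 2 higher, with a median of -1.66. Its subunit gene ATP6V0E1 had 23 counts against 224 (-2.95, -3.64 to -2.33), and ATP6V1G1 and ATP6V0C had 0 counts after rounding, against 70 and 45. Taking the same floor of 3 counts, these were at least 18.5-fold and 11.9-fold lower, and their counting intervals reach log2 ratios of -3.87 and -3.21.

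Sorting and trafficking genes had 12 of 34 lower and 3 higher (median -0.40), among them the mannose 6-phosphate receptor gene IGF2R with 6 counts against 23 (-1.60, -3.19 to -0.27). The list of the TFEB family and nutrient sensing had 8 of 21 lower and 2 higher (median -0.66), and the TFEB relative TFE3 had 5 counts against 25 (-1.99, -3.73 to -0.58). TFEB itself had 4 counts in each library (0.34, -2.09 to 2.76). TSC1, a brake on mTORC1, had 2 against 21 (-3.06, -6.19 to -1.02), while its partner TSC2 had 15 against 4 (2.24, 0.59 to 4.29), and LAMTOR1, which anchors the Ragulator complex to the lysosome, had 2 against 19. Autophagy genes had 5 of 29 lower and 5 higher (median -0.39). The cargo receptors OPTN and SQSTM1 had 2 counts against 24 (-3.25, -6.38 to -1.24) and 27 against 74 (-1.12, -1.81 to -0.47), and WIPI2, which acts in autophagosome formation, had 23 against 8 (1.86, 0.65 to 3.23).

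Tetraspanin and multivesicular body genes, the compartment of CD63, had 10 of 21 lower and 2 higher, with a median of -0.74. CD9, a tetraspanin of the cell surface and exosomes, had 5 counts against 32 (-2.34, -4.06 to -0.97), and CHMP4B, an ESCRT-III subunit, had 6 against 59 (-2.96, -4.47 to -1.75). The tetraspanin gene TSPAN3 had 0 against 24 and was at least 6.34-fold lower at the floor of 3 counts, with an interval that reaches -2.25. Cathepsin inhibitors had 2 of 5 lower and 0 higher, with a median of -0.99. The lower pair were the cystatins CST3, with 2 counts against 86 (-5.09, -8.16 to -3.19), and CSTB, with 3 against 41 (-3.44, -5.77 to -1.79). The genes of the cathepsins CTSB and CTSL and of CST3 and CSTB, inhibitors of such cysteine proteases, were thus all lower in the TGF-beta-labelled library.

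**Figure D4:**
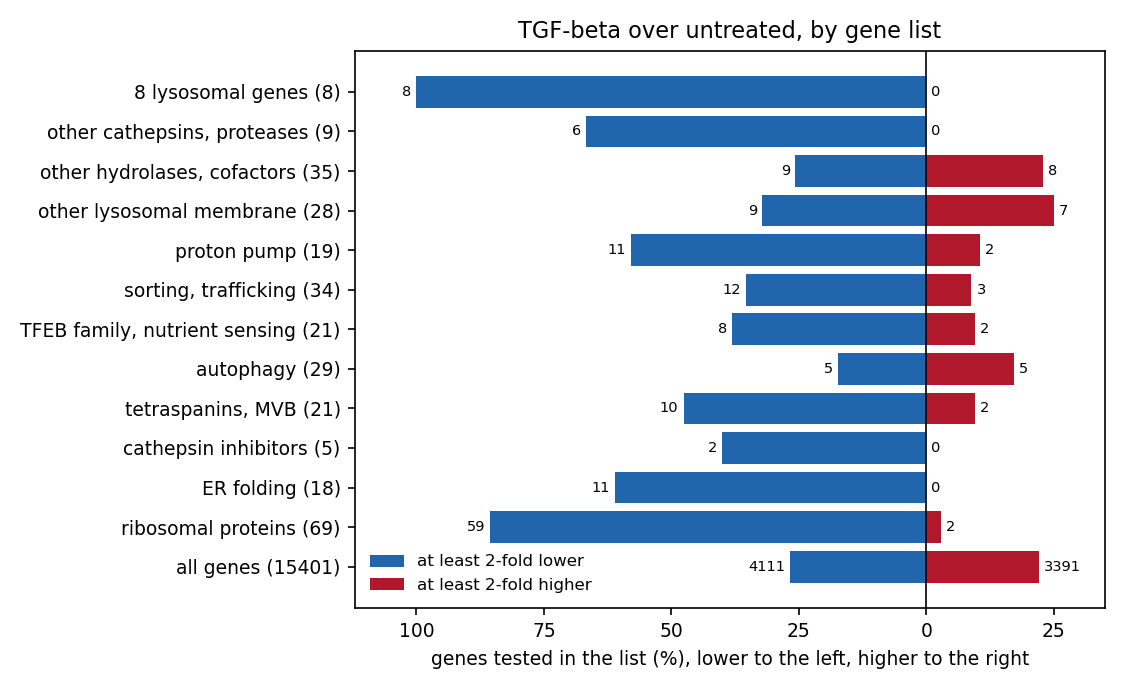
Share of the tested genes of each list (number tested in parentheses) lower by 2-fold or more (blue, left) or higher by as much (red, right) in the TGF-beta-labelled library than in the untreated library, with the number of genes at each bar end. The 8 lysosomal genes are all lower, ribosomal protein genes are lower in 59 of 69, and the other lysosomal lists range from 5 of 29 (autophagy) to 6 of 9 (cathepsins).

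Ratios of this size were also found outside lysosomal genes. Of the ribosomal protein genes 59 of 69 were lower and 2 higher, and their median log2 ratio was -3.26, beside the -3.62 of the 8 genes. Folding proteins of the endoplasmic reticulum, through which the soluble lysosomal proteins also pass, had 11 of 18 lower and 0 higher, with a median of -1.94. P4HB, a protein disulfide isomerase, had 4 counts in the TGF-beta-labelled library and 125 in the untreated library (-4.63, -6.53 to -3.24). PPIB, a prolyl isomerase, had 5 against 113 (-4.16, -5.81 to -2.90), and the chaperone HSP90B1 had 5 against 76 (-3.59, -5.25 to -2.30). RPS12, a protein of the small ribosomal subunit, had 16 against 600 (-4.89, -5.71 to -4.18). Scaled on the ribosomal protein genes, the summed count of the set had a log2 ratio of -0.51, and PSAP alone was still lower by 2-fold or more, at -3.86. On that scale CTSD (2.20), LAMP1 (1.05), LAMP2 (0.80) and CD63 (0.076) were above equality.

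Among the 1755 genes outside the lists with an untreated level like that of the set, the 5 named here had the log2 ratio nearest to that of the summed lysosomal count. They were CTD-2132N18.3 (2 counts in the TGF-beta-labelled library and 41 in the untreated library), USP3 (2 against 42), SRSF3 (0 against 63, at the floor), MYEOV2 (3 against 61) and TNFRSF12A (3 against 61). The ratios of the 4 genes with TGF-beta counts lay between -4.06 and -4.01, and that of SRSF3 is only a bound set by the floor of 3 counts. The likeness rests on 2 libraries and a few reads.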

How the data were processed

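RNA of 1 TGF-beta and 1 untreated library was purified on Qiagen columns, and 10 ng per library entered the AmpliSeq Transcriptome kit, per the labels' protocols. The authors deposited expected counts per gene, which are estimates with decimals and are not normalized, with transcript shares and counts divided over exons. Coordinates are hg19. That build and DESeq stand in the submitters' processing notes, with no role given. Aligner, counter and strand setting: not given in the sources used here.

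Gene counts were rounded to whole numbers (0.5 upward) and scaled by TMM in edgeR 4.0.16 (R 4.3.3). The TMM factor was 0.946 (TGF-beta) and 1.06 (untreated). Genes with at least 5 CPM in 1 library were compared by the log2 ratio without pseudocount. A 0 was set to 3 counts (5.31 CPM, TGF-beta; 4.21 CPM, untreated). Ratios have 95% intervals from the exact Clopper-Pearson bounds of the TGF-beta share of both counts, and CPM have Poisson intervals. The size rule was 2-fold. Overlapping exons were merged into regions. The scaling and interval code was tested on simulated data. Members, lists and rules were chosen with earlier results of these data known. Of 418 listed symbols 416 were found. All members were named, with up to 3 genes per other list, those of the largest ratio size among genes with at least 20 counts over both libraries, and selected marker and check genes. Some genes that this rule names are not reported here. DESeq2 1.42.0 size factors, other scalings, filters, pseudocount and unrounded counts were alternatives.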

Additional observations from a re-analysis of the deposited data

How the results depend on the processing

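The 8 members stayed at least 2-fold lower with DESeq2 size factors, total counts, upper quartile, unrounded counts and log2(CPM + 1), and 40 of their 48 values under the 6 settings tried on each member lay within the counting interval of the TMM value. The other 8 came from scaling on the ribosomal protein genes, which shifted every log2 ratio by 3.52. It left 1 member at least 2-fold lower, a summed log2 ratio of -0.51 and a median of -0.10, and turned CTSD (2.20), LAMP1 (1.05), LAMP2 (0.80) and CD63 (0.076). The summed log2 ratio was -3.38 without PSAP. In an alternative chosen after seeing the data it was -3.11 with RP11-295K3.1 counted into CTSD, which left 7 members at least 2-fold lower. In the 2 main exon regions of each gene, also chosen after seeing the data, the summed log2 ratio was -5.19. The untreated counts picked those regions, which lowers that ratio by construction. In the other lysosomal lists 17 genes were at least 2-fold higher with DESeq2 size factors, against 29 with TMM. At 20 CPM 36 were lower and 7 higher, because fewer genes were tested. No paired analysis was possible because each group is 1 library, and for the same reason no replicate could be left out. With 1 to 7 counts per gene in the TGF-beta library, the intervals of single genes are wide.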

Other observations

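Some of the other hydrolase, cofactor and membrane genes had 50 or more counts over both libraries, and those described here were singled out after their values were seen. FUCA1, a fucosidase, had 142 counts in the TGF-beta-labelled library and as many in the untreated library, all of them in 1 exon region of 397 bases. SMPD1, the acid sphingomyelinase, had 42 and 42 counts, with 97.6% and 100% of the exon counts in a region of 492 bases. CLCN7, the lysosomal chloride-proton exchanger, had 159 counts in the TGF-beta-labelled library and 52 in the untreated library, a log2 ratio of 1.95 (1.49 to 2.43). A region of 747 bases held 89.7% of its exon counts in the TGF-beta-labelled library and 35% in the untreated library. NPC1, the membrane partner of NPC2, had 70 and 121 counts, a log2 ratio of -0.45 (-0.90 to -0.02), with 96.1% and 64.7% in a region of 612 bases. The channel genes TPCN2 and TPCN1 went opposite ways, with 165 against 117 counts (0.83, 0.48 to 1.19) and 55 against 164 counts (-1.24, -1.71 to -0.79) in the TGF-beta and untreated libraries. Amplicon positions were not used here, so whether these stretches are the kit's targets was not tested.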
